A study of Homo sapiens with 12 samples.

Results

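The genes described here encode the cap-binding complex eIF4F and the proteins that work directly with it: EIF4G1, EIF4G2, EIF4G3, EIF4E, EIF4A1, EIF4A2, EIF4B, EIF4H, EIF4EBP1 and PABPC1. A gene was represented by the probe sets that carry its symbol and no other. By that rule 8 of the 10 genes had a probe set, out of 19775 genes on the array, with 18 probe sets between them. EIF4G3 had none, and EIF4A1 had 3 probe sets that each carry several symbols and were not used. The gene EIF4A2 had 1 probe set with its symbol alone, at log2 intensities from 2.99 to 3.41, and 2 with several symbols. The other 7 genes were at a log2 intensity of at least 6 in at least 4 arrays, as were 10157 genes in all, and these were tested.

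The study measured RNA from MCF10A mammary epithelial cells on 12 arrays, 1 for each combination of genotype, treatment and RNA preparation. Cells were wild type (WT) or had eIF4G1 silenced by a short hairpin RNA induced with doxycycline (4GKD, here knockdown), and were mock-treated or irradiated with 10 Gy. The preparations were light polysomes (LMW), heavy polysomes (HMW) and total RNA (Total). Labels give 1 to 3 ribosomes for the LMW pool and 4 or more for the HMW pool of WT mock cells, and no numbers for the others. They do not say whether the WT cells had a hairpin or doxycycline of their own, how long after irradiation cells were taken, or whether the arrays came from separate cultures. The p-values therefore rest only on the spread between these samples, in some fits pooled over genes, and this spread may be technical. The labels name breast cancer as the origin of the cells, whereas MCF10A is known as a non-tumorigenic line.

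In eIF4F, the small protein eIF4E holds the cap of the mRNA, the helicase eIF4A (EIF4A1 or EIF4A2) unwinds the leader, and the scaffold eIF4G1 holds both and recruits the small ribosomal subunit. EIF4G3 encodes a second scaffold of this kind, while EIF4G2 encodes a relative that lacks the eIF4E-binding part. EIF4B and EIF4H stimulate the helicase, and PABPC1 encodes the poly(A)-binding protein that touches eIF4G from the tail of the mRNA. The product of EIF4EBP1 binds eIF4E in place of eIF4G until the kinase mTOR phosphorylates it. Many mRNAs of the translation machinery begin with a C and an unbroken pyrimidine run, the terminal oligopyrimidine (TOP) motif, through which mTOR controls their translation.

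RefSeq start windows (build GRCh38.p14) are shown for 5 of the 7 tested genes, because a TOP motif would lie at the start. The remaining tested genes were left out of the search and are named below the windows. Each window runs from 15 bases before the annotated start to 15 bases from it onward, 5′ to 3′ on the gene's strand. Capitals mark the unbroken run of C or T that opens the transcript.
EIF4G1, chr3:184314591-184314620, plus strand: tctgtgcggggagccggaaatggttgtgga
EIF4G1, chr3:184315149-184315178, plus strand: cctccgggccgacccTCacttgcctgaaac
EIF4G1, chr3:184320248-184320277, plus strand: acctactggatctgggccctgcccccagag
EIF4G2, chr11:10807982-10808011, minus strand: gaggttgtcggaagcacttccctaacttgc
EIF4G2, chr11:10808912-10808941, minus strand: cagacacgccttagcgccagcagtgagtcg
EIF4E, chr4:98929119-98929148, minus strand: ccttctggagcggttgtgcgatcagatcga
EIF4B, chr12:53006441-53006470, plus strand: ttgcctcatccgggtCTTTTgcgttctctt
EIF4H, chr7:74174341-74174370, plus strand: ccttcctcgctcaccCTggttcctctcgga

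The motif searched was a C at the annotated start followed by at least 4 bases that are each C or T, on the gene's strand only. EIF4B held the 1 match among these 8 windows, and 1429 of all 35116 windows (4.069%) held it. Chromosome 8 was left out for the listed genes but not in the count over all windows. Whether EIF4EBP1 or PABPC1 has the motif was therefore not examined. A match describes these letters and is not evidence of control, and annotated starts can differ from those used in these cells.

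Over all 12 arrays, median intensities lay between 22.6 and 24.4 and the lowest value was 4.29. With medians this close, a level is relative to the other RNAs on its array. A change in the whole amount of RNA in a polysome pool would not be seen. Across the kept genes, Pearson r between arrays of a preparation ran from 0.861 to 0.984 in LMW, from 0.854 to 0.986 in HMW and from 0.944 to 0.993 in Total, as a description across genes, which are not replicates. The WT mock and WT 10 Gy arrays correlated at 0.907 in LMW and 0.911 in HMW, against 0.984 and 0.986 for the corresponding knockdown arrays. In HMW the WT 10 Gy array was closer to knockdown mock (0.945) and knockdown 10 Gy (0.932) than to WT mock. The WT mock HMW array correlated with those knockdown arrays at 0.880 and 0.854. In LMW the corresponding values were 0.888 and 0.861 for WT 10 Gy, and 0.896 and 0.862 for WT mock. Of 10 epithelial markers 6 had a probe set used here, and 5 of these, KRT5, KRT14, KRT18, EPCAM and LAMB3, were at or above 6 in all arrays, while CDH1 was in 10. Endothelial PECAM1, VWF and CDH5, the immune markers PTPRC and CD3E, fibroblast COL1A2, COL3A1 and THY1, and the hormone receptor PGR were below 6 in all arrays. Of the same lists, COL1A1 reached 6 in 11 arrays (up to 8.78), CD14 in 10 (up to 7.44), PDGFRB in 7 (up to 6.67), ESR1 in 6 (up to 6.41) and CD79A in 5 (up to 6.44). Their part in the results below was not tested.

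The targeted gene was examined first. EIF4G1 intensity in Total was 1028 in WT mock, 864 in WT 10 Gy, 163 in knockdown mock and 176 in knockdown 10 Gy cells. The log2 levels in LMW were 8.89 and 8.53 in WT mock and WT 10 Gy cells, and 6.99 and 6.45 in the corresponding knockdown cells. In HMW they were 11.50 and 10.97 in WT and 7.53 and 7.56 in knockdown cells. Every knockdown array lay below both WT arrays of its preparation. In Total EIF4G1 fell by 2.47 ± 0.118 (SE) on the log2 scale, to 18.0% of WT (adjusted p = 2.3e-06 in limma). It fell by 1.99 ± 0.429 in LMW (adjusted p = 0.00013). The difference in HMW was -3.69 ± 0.404, which left 7.74% of WT (adjusted p = 1.0e-16). The second EIF4G1 probe set fell in the same direction, but was below 6 in all knockdown arrays, so its differences have no exact size.

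**Figure D1:**
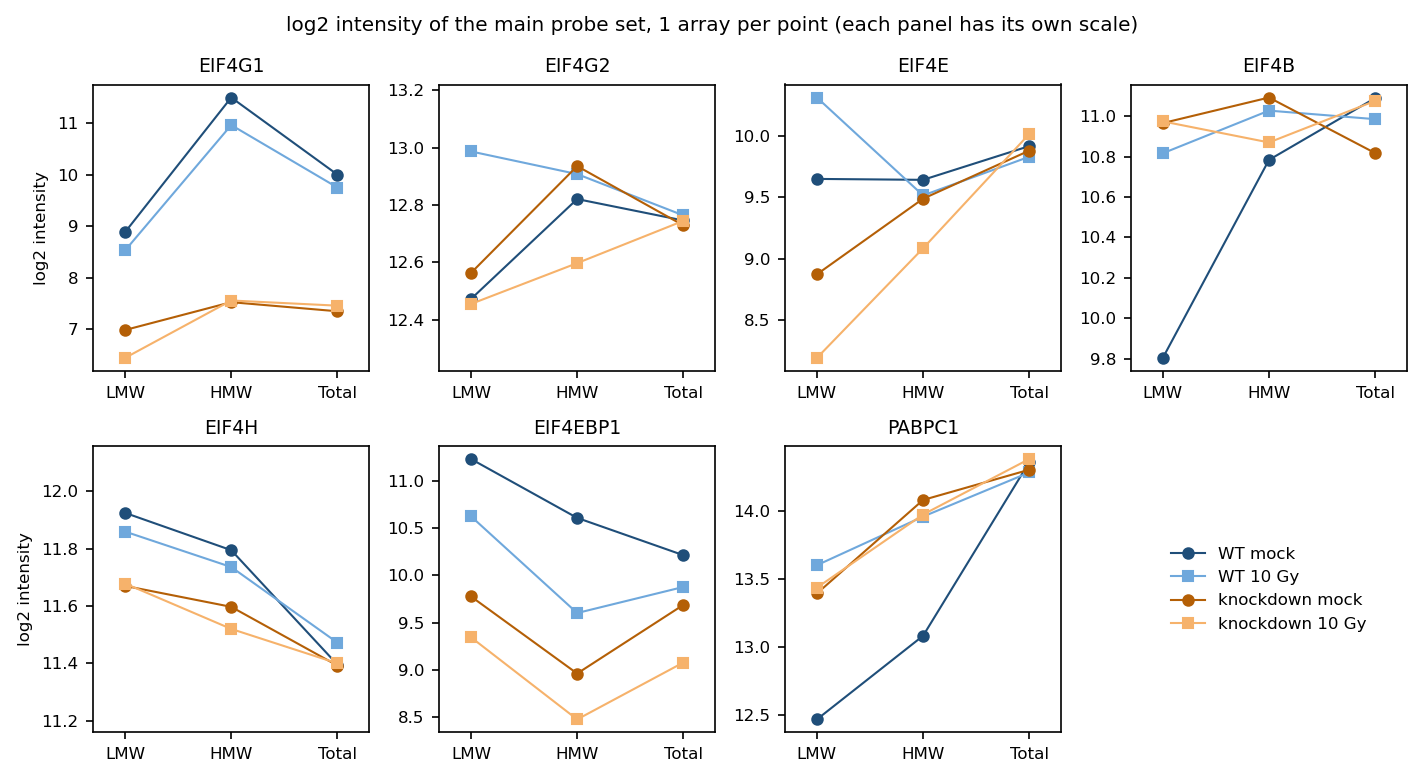
Log2 intensity of the main probe set of the 7 tested genes (vertical axis, own scale in each panel) in LMW, HMW and Total RNA; each point is 1 array and each line joins the arrays of 1 condition. EIF4G1 separates by genotype in every preparation, EIF4EBP1 steps down from WT mock to knockdown 10 Gy, and WT mock stands low for EIF4B in LMW and for PABPC1 in LMW and HMW.

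Heavy polysomes were compared with light ones to ask which of these mRNAs carried more ribosomes relative to other mRNAs. EIF4G1 and PABPC1 were higher in HMW and EIF4EBP1 was higher in LMW, while EIF4G2, EIF4E, EIF4B and EIF4H did not pass the test. Thus 2 of 7 genes were called higher and 1 of 7 lower, beside 19.6% higher and 21.1% lower of all genes tested. The median difference was 0.20 over the 7 genes and -0.06 over all genes. In each comparison of preparations the 4 conditions served as matched pairs, and limma was fitted across all 10157 genes with Benjamini-Hochberg adjustment at 0.05. Longer coding sequences have room for more ribosomes, and coding length was not examined. None of the 3 calls held when the conditions were not used as pairs (adjusted p from 0.276 to 0.350). That setting left 55 of the 4134 calls over all genes, so the loss is not particular to these genes.

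For the scaffold EIF4G1, HMW exceeded LMW by 1.68 ± 0.353 (SE) on the log2 scale, or 3.20-fold (SD of the pairs 1.01, n = 4, adjusted p = 0.0106). The pairs were 2.61 in WT mock, 2.43 in WT 10 Gy, 0.54 in knockdown mock and 1.11 in knockdown 10 Gy cells. All 4 pairs were positive, and both WT pairs lay above both knockdown pairs. Against Total, EIF4G1 fell by 0.93 ± 0.237 in LMW (adjusted p = 0.0116, lower in 4 of 4 pairs). The second EIF4G1 set gave -1.13 in WT mock and -1.79 in WT 10 Gy there. In the knockdown, where that set was below 6, it gave 0.20 in mock and 0.27 in 10 Gy cells. The excess of the main EIF4G1 set in HMW over Total, 0.75 ± 0.271, did not pass (adjusted p = 0.0628). It passed without the knockdown 10 Gy pair (0.96, adjusted p = 0.0401) and with the median of probe sets (0.87, adjusted p = 0.0334), and was smallest without the WT mock pair (0.50, adjusted p = 0.0918).

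EIF4G2, the relative without an eIF4E-binding part, varied little. Its log2 level ran from 12.73 to 12.76 in the 4 Total arrays, from 12.45 to 12.99 in LMW and from 12.60 to 12.94 in HMW, so that the preparations overlapped. HMW minus LMW was 0.20 ± 0.109 (95% confidence interval -0.06 to 0.45, adjusted p = 0.184). A second EIF4G2 probe set was at 6.03 to 6.52 and gave -0.13, and the last was at 3.56 to 3.99, below the filter in all arrays.

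The cap-binding subunit EIF4E had pairs of opposite sign. In LMW the log2 levels of EIF4E were 9.65 in WT mock, 10.31 in WT 10 Gy, 8.87 in knockdown mock and 8.19 in knockdown 10 Gy cells. In HMW the corresponding values were 9.64, 9.52, 9.49 and 9.09, and in Total 9.92, 9.83, 9.88 and 10.02. LMW was thus the preparation in which the arrays spread most. HMW minus LMW was -0.01 and -0.80 in WT mock and WT 10 Gy, and 0.62 and 0.89 in the knockdown, with a mean of 0.18 ± 0.274 (SE, adjusted p = 0.623). EIF4E was lower in HMW than in Total in 4 of 4 pairs, by a mean of -0.48 ± 0.179, which did not pass (adjusted p = 0.0685). Leaving out WT mock it was -0.55 and passed (adjusted p = 0.0189). It was smallest without the knockdown 10 Gy pair (-0.33, adjusted p = 0.339), and was -0.88 with the median of probe sets (adjusted p = 0.0299) and without _x_at or _s_at sets (adjusted p = 0.0390). LMW minus Total was -0.65 ± 0.359 (adjusted p = 0.145). It was -1.03 without the WT 10 Gy pair (adjusted p = 0.0484) but -0.26 without the knockdown 10 Gy pair (adjusted p = 0.566). With the median of probe sets it was -1.11 (adjusted p = 0.0248), and without _x_at or _s_at sets -1.16 (adjusted p = 0.0274). Both of these settings draw on 201436_at, an EIF4E set that was below 6 in 6 of the 8 polysome arrays, so the sizes they give are not exact.

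EIF4EBP1, the inhibitor of eIF4E, was the 1 gene of the 7 called toward light polysomes. Its log2 levels in LMW were 11.24 in WT mock, 10.63 in WT 10 Gy, 9.78 in knockdown mock and 9.34 in knockdown 10 Gy cells. In the same order HMW gave 10.61, 9.60, 8.96 and 8.47, and Total gave 10.22, 9.88, 9.69 and 9.08. Within each condition HMW lay below LMW. The difference was -0.83 ± 0.129 (SE), so that the HMW intensity was 56.1% of that in LMW (SD of the pairs 0.166, n = 4, adjusted p = 0.0048). The pairs ran from -1.03 to -0.62. Against Total, LMW was higher by 0.53 ± 0.236 in 4 of 4 pairs without passing (adjusted p = 0.0827). HMW minus Total was -0.30 ± 0.218 (adjusted p = 0.294), with the WT mock pair at 0.40 and the other pairs from -0.73 to -0.28. Without that pair it was -0.54 (adjusted p = 0.0149), and without the knockdown mock pair -0.16 (adjusted p = 0.670).

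The helicase partners EIF4B and EIF4H did not pass in any comparison of preparations with the conditions as pairs. EIF4B log2 levels in LMW were 9.80 in WT mock cells and 10.82, 10.97 and 10.98 in WT 10 Gy, knockdown mock and knockdown 10 Gy cells. The WT mock array was the low one, and the other LMW arrays overlapped with HMW (10.78 to 11.09) and Total (10.82 to 11.09). HMW minus LMW was 0.98 in the WT mock pair and -0.10 to 0.21 in the others, with a mean of 0.30 ± 0.189 (adjusted p = 0.229). Of the other EIF4B probe sets, the 219599_at set gave 0.95 with 4 of 4 pairs positive, and the 211937_at set gave 0.13 with 2 of 4 positive, so the probe sets did not read alike.

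EIF4H log2 levels lay between 11.67 and 11.93 in LMW, 11.52 and 11.79 in HMW, and 11.39 and 11.47 in Total. All 8 polysome arrays were above all 4 Total arrays. LMW minus Total was 0.37 ± 0.158 (adjusted p = 0.0738) and HMW minus Total 0.25 ± 0.115 (adjusted p = 0.123), each positive in 4 of 4 pairs and neither past the threshold. With no condition block the LMW minus Total value passed (adjusted p = 0.0413). HMW minus LMW was -0.12 ± 0.0975 (adjusted p = 0.343).

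PABPC1, the poly(A)-binding protein, was lower in both polysome pools than in Total. Its log2 levels in Total were 14.36 in WT mock, 14.28 in WT 10 Gy, 14.30 in knockdown mock and 14.38 in knockdown 10 Gy cells. In LMW these were 12.47, 13.60, 13.39 and 13.44, and in HMW 13.08, 13.96, 14.08 and 13.97. No polysome array reached the Total arrays, and WT mock was the lowest array in LMW and in HMW. HMW exceeded LMW by 0.55 ± 0.0869 (SE), or 1.46-fold (SD of the pairs 0.141, n = 4, adjusted p = 0.0051), with pairs from 0.36 to 0.69. Against Total, PABPC1 fell by 1.10 ± 0.183 in LMW (adjusted p = 0.0025) and by 0.56 ± 0.157 in HMW (adjusted p = 0.0278), in 4 of 4 pairs each. The HMW call did not hold without the WT 10 Gy pair (-0.63, adjusted p = 0.0776), with no trend (adjusted p = 0.0764), with no condition block (adjusted p = 0.0570) or with the median of probe sets (-0.07, adjusted p = 0.761). Its 4 pairs ran from -1.27 in WT mock to -0.22 in knockdown mock. This probe set, 215157_x_at, has the _x_at name of sets that can cross-hybridise, so PABPC1 cannot be told apart from close copies such as PABPC3.

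**Figure D2:**
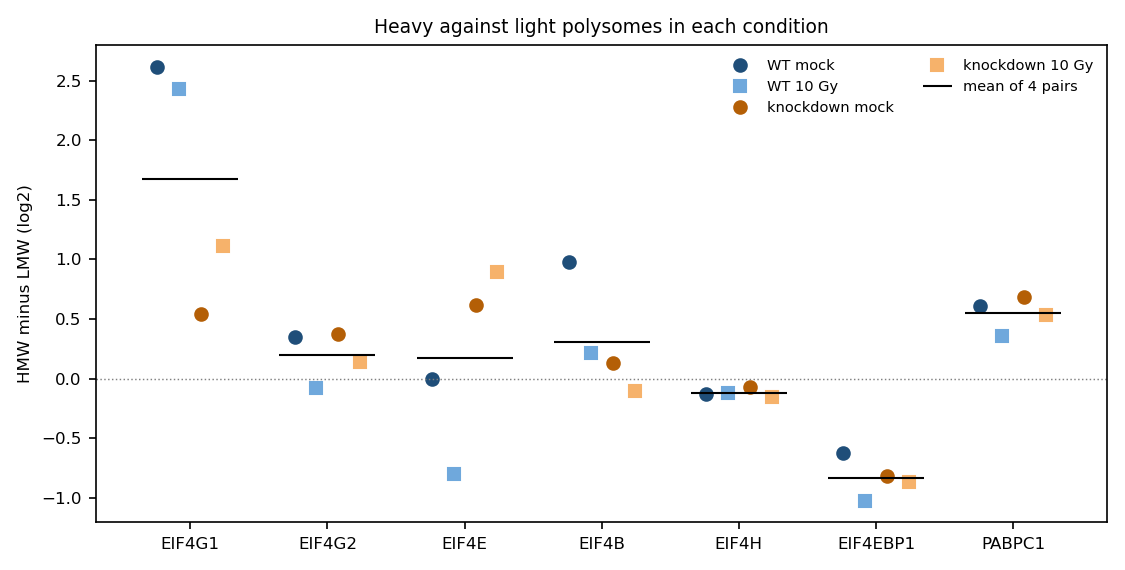
HMW minus LMW (log2, vertical axis) for the 7 tested genes; each point is 1 condition and the bar is the mean of 4 pairs. EIF4G1 and PABPC1 are positive and EIF4EBP1 negative in every condition, and for EIF4E the knockdown conditions lie above 0 and WT at or below it.

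Over the 7 genes, HMW against Total gave 0 called higher and 1 called lower, PABPC1, beside 17.4% and 18.6% of all genes. LMW against Total gave 0 higher and 2 lower, EIF4G1 and PABPC1, beside 28.5% and 28.1%. With so large a background, these counts say little about the group as such.

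The effect of eIF4G1 silencing was fitted within each preparation on 4 arrays, together with the effect of 10 Gy. This leaves 1 residual degree of freedom, so both pairs, mock and 10 Gy, are given beside each fit. In LMW and HMW, and for the effect on HMW minus Total, limma pooled the spread over genes completely, and how far the pairs of a single gene lie apart has no influence on its p-value. Apart from EIF4G1, the knockdown lowered EIF4EBP1 in all 3 preparations and EIF4E in LMW, and PABPC1 was called higher in HMW. In Total 0 of 7 genes were called higher and 2 lower, beside 20.7% and 19.8% of all genes. LMW gave 0 higher and 3 lower (background 10.3% and 5.1%), and HMW 1 higher and 2 lower (background 5.82% and 4.09%). In such bulk RNA, fewer cells that express a gene and less of its RNA per cell cannot be told apart.

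EIF4EBP1 fell by 0.66 ± 0.105 (SE) in Total, to 63.1% of WT (adjusted p = 0.00086, pairs -0.53 in mock and -0.80 in 10 Gy), a call lost with all 12 arrays in a single fit (adjusted p = 0.239). It fell by 1.37 ± 0.425 in LMW, to 38.7% (adjusted p = 0.0131, pairs -1.46 and -1.28), and by 1.39 ± 0.403 in HMW, to 38.2% (adjusted p = 0.0101, pairs -1.65 and -1.13). Every knockdown array was below both WT arrays of its preparation. The larger drop in HMW than in Total was not shown: the effect of the knockdown on HMW minus Total was -0.73 ± 0.440 (adjusted p = 0.460). Nor did the effect on HMW minus LMW pass (-0.02 ± 0.255, 95% confidence interval -0.54 to 0.50, adjusted p = 0.977).

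EIF4E fell in LMW by 1.45 ± 0.470 (SE), to 36.6% of WT (adjusted p = 0.0188). The intensities there were 804 in WT mock and 1272 in WT 10 Gy cells against 469 and 292 in the knockdown. Both pairs were negative, -0.78 in mock and -2.12 in 10 Gy (SD of the pairs 0.95), and the fitted SE does not reflect how far they lie apart. HMW gave -0.29 ± 0.402 (adjusted p = 0.783), and Total gave 0.07 ± 0.100 (95% confidence interval -0.15 to 0.30, adjusted p = 0.600). Another EIF4E probe set, 201437_s_at, gave -1.45 in LMW (pairs -0.99 and -1.91). The set 201436_at was also lower in both pairs, but was below 6 there in both knockdown arrays and in WT mock, so its difference has no exact size. In Total, where all arrays of both sets were above 6, they parted, at -0.01 for 201437_s_at and -0.69 for 201436_at, which was lower in both pairs. With the median of its probe sets EIF4E was called lower in Total (-0.69, adjusted p = 0.0045). In Total that median is 201436_at itself in every array, so the call is no separate observation. The main set gave 0.07 there. Of the 5 EIF4E probe sets, the 237718_at and 242674_at sets were below 6 in all arrays.

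PABPC1 differed by 0.51 ± 0.146 in HMW (adjusted p = 0.0100), but its pairs were 1.00 in mock and 0.02 in 10 Gy cells, so the call rests on the WT mock array. In LMW the pairs were 0.92 and -0.16 (mean 0.38 ± 0.175, adjusted p = 0.128). In Total the difference was 0.02 ± 0.0469 (95% confidence interval -0.08 to 0.13). EIF4B followed the same course in LMW, with pairs of 1.16 in mock and 0.16 in 10 Gy (mean 0.66 ± 0.395, adjusted p = 0.274). WT mock LMW was the low array for both genes. The part of that array in these differences was not tested, and the within-10 Gy pairs above are the values without it. The HMW call of PABPC1 was also lost in eBayes without a trend (adjusted p = 0.531), with the median of probe sets (0.28, adjusted p = 0.815) and with all 12 arrays in a single fit (adjusted p = 0.273).

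For EIF4B the probe set mattered. The 211937_at set was higher in the knockdown in both pairs of each preparation, by 1.21 in LMW, 0.46 in HMW and 0.49 in Total, whereas 219599_at gave 0.54, -0.24 and 0.04. The main set gave -0.09 ± 0.0994 in Total (adjusted p = 0.510) and 0.08 ± 0.318 in HMW (adjusted p = 0.947). With the median of its probe sets EIF4B was called higher in Total (0.35, adjusted p = 0.0195). Among the 5 genes whose start windows are printed above, EIF4B was the 1 with the motif searched. Any link between that motif and these differences was not tested.

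EIF4G2 was at -0.02 ± 0.0572 in Total (95% confidence interval -0.15 to 0.11, adjusted p = 0.832). The corresponding values were -0.22 ± 0.220 in LMW and -0.10 ± 0.196 in HMW (adjusted p = 0.575 and 0.862). EIF4H gave -0.04 ± 0.0755 in Total, -0.22 ± 0.292 in LMW and -0.21 ± 0.269 in HMW (adjusted p = 0.730, 0.702 and 0.765). Both EIF4H pairs were negative in each preparation, from -0.25 to -0.003, although preparations of the same condition are not separate replicates.

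**Figure D3:**
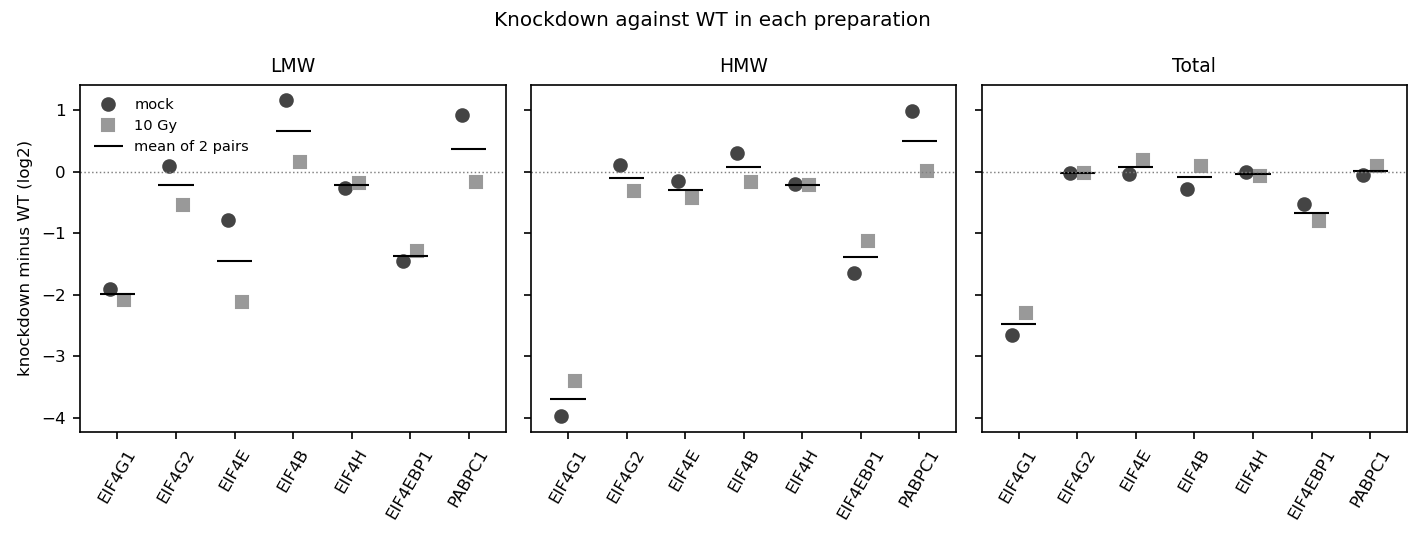
Knockdown minus WT (log2, vertical axis) for the 7 tested genes in LMW, HMW and Total; each point is the mock or the 10 Gy pair and the bar is their mean. EIF4G1 and EIF4EBP1 are below 0 in all panels, EIF4E is below 0 in LMW, and the mock points of EIF4B and PABPC1 stand above their 10 Gy points in LMW.

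**Figure D4:**
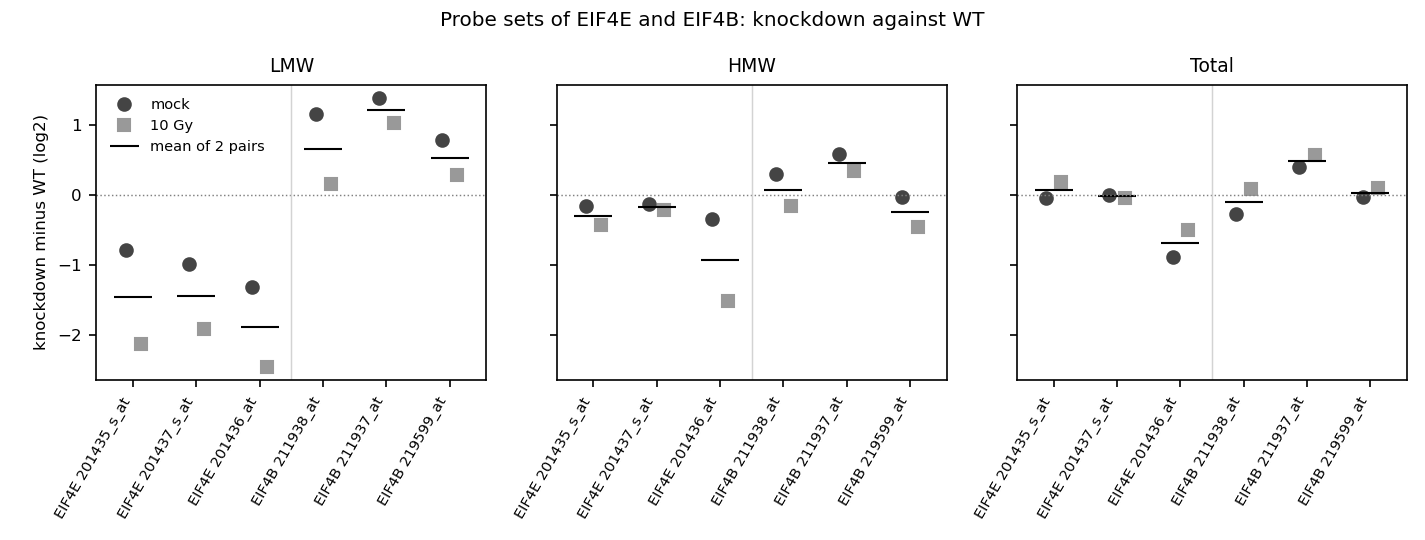
Knockdown minus WT (log2, vertical axis) for each probe set of EIF4E and EIF4B that reached the filter level in at least 4 arrays, in LMW, HMW and Total; points are the mock and 10 Gy pairs and the bar is their mean. All EIF4E sets lie below 0 in LMW, whereas in Total 201436_at lies at -0.69 and the others near 0, and for EIF4B only 211937_at is above 0 in all panels.

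Whether silencing changed the place of an mRNA between heavy and light polysomes, relative to other mRNAs, was tested on the 4 differences HMW minus LMW. A shift common to all mRNAs would not be seen. EIF4G1 shifted toward light polysomes by -1.70 ± 0.289 (SE, adjusted p = 0.00021, pairs -2.07 in mock and -1.32 in 10 Gy). For EIF4E, HMW minus LMW was higher in the knockdown by 1.16 ± 0.285 (adjusted p = 0.0059, pairs 0.62 and 1.69). That went with a lower EIF4E level in LMW (-1.45), while the HMW level was not higher (-0.29). Thus 1 of 7 genes was called in each direction, beside 5.33% higher and 10.5% lower of all genes. The EIF4G1 difference was taken at knockdown levels that were 6.45 to 7.56 on the log2 scale, near the filter level of 6. The EIF4E set 201437_s_at gave 1.28. The call was lost without sets named _x_at or _s_at (adjusted p = 0.0970), where 201436_at alone stands for the gene, and with the median of probe sets (adjusted p = 0.0817). Since 201436_at was below 6 in all 4 knockdown and both WT mock polysome arrays, the difference it gives has no exact size. EIF4B was at -0.59 ± 0.225 without passing (adjusted p = 0.0760, pairs -0.85 and -0.32), and its other sets gave -0.75 and -0.78. For EIF4G2, EIF4H and PABPC1 the values were 0.12, 0.01 and 0.13 (adjusted p = 0.645, 0.981 and 0.541).

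On HMW minus Total, PABPC1 was called higher (0.48 ± 0.142, adjusted p = 0.0206) and none of the 7 lower, beside 3.97% and 0.492% of all genes. Its pairs were 1.05 in mock and -0.08 in 10 Gy cells, so this too rests on the WT mock array, and it was lost under 4 of the other settings (adjusted p from 0.0532 to 0.871). EIF4G1 was at -1.22 ± 0.460 (adjusted p = 0.124, pairs -1.32 and -1.11). EIF4E was at -0.37 ± 0.435 (adjusted p = 0.756, pairs -0.12 in mock and -0.62 in 10 Gy cells). Comparisons that share arrays are not independent: the knockdown effects in HMW and on HMW minus Total or LMW use the same HMW arrays.

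Irradiation with 10 Gy moved none of the 7 genes past the threshold in limma. The count was 0 in Total, where 0.128% of all genes were called higher and 0.0492% lower, 0 in LMW (0.345% and 0.0295%) and 0 in HMW (0.463% and 0.00985%). At an unadjusted p under 0.05 there was 1 gene in each preparation, EIF4EBP1 in Total and PABPC1 in LMW and HMW. EIF4EBP1 was lower after 10 Gy in both genotypes in each preparation, although preparations of the same condition are not separate replicates of the treatment. Its mean difference was -0.47 ± 0.105 in Total (adjusted p = 0.109), -0.52 ± 0.425 in LMW (adjusted p = 0.906) and -0.75 ± 0.403 in HMW (adjusted p = 0.632). With a cyclic loess between arrays the Total value passed (-0.45, adjusted p = 0.0497).

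PABPC1 was higher after 10 Gy in WT polysomes, by 1.13 in LMW and 0.87 in HMW, while the knockdown pairs were 0.04 and -0.11. The means were 0.59 ± 0.175 (adjusted p = 0.100) and 0.38 ± 0.146 (adjusted p = 0.307), and in Total 0.002 ± 0.0469. For EIF4B in LMW the WT pair was 1.01 and the knockdown pair 0.01 (mean 0.51 ± 0.395, adjusted p = 0.901). EIF4E in LMW had a WT pair of 0.66 and a knockdown pair of -0.68. These contrasts between genotypes compare single arrays and were not tested. The WT pairs of PABPC1 in both pools and of EIF4B in LMW rest on the low WT mock arrays. For PABPC1 those were at 12.47 in LMW and 13.08 in HMW, against 13.60 and 13.96 in WT 10 Gy. The knockdown arrays were at 13.39 and 13.44 in LMW and at 14.08 and 13.97 in HMW. EIF4B in LMW was at 9.80 in WT mock and 10.82 to 10.98 in the other arrays. EIF4G1 was at -0.07 ± 0.118 in Total (95% confidence interval -0.34 to 0.19, adjusted p = 0.856), EIF4G2 at 0.02 ± 0.0572 and EIF4H at 0.04 ± 0.0755 (adjusted p = 0.932 and 0.865).

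**Figure D5:**
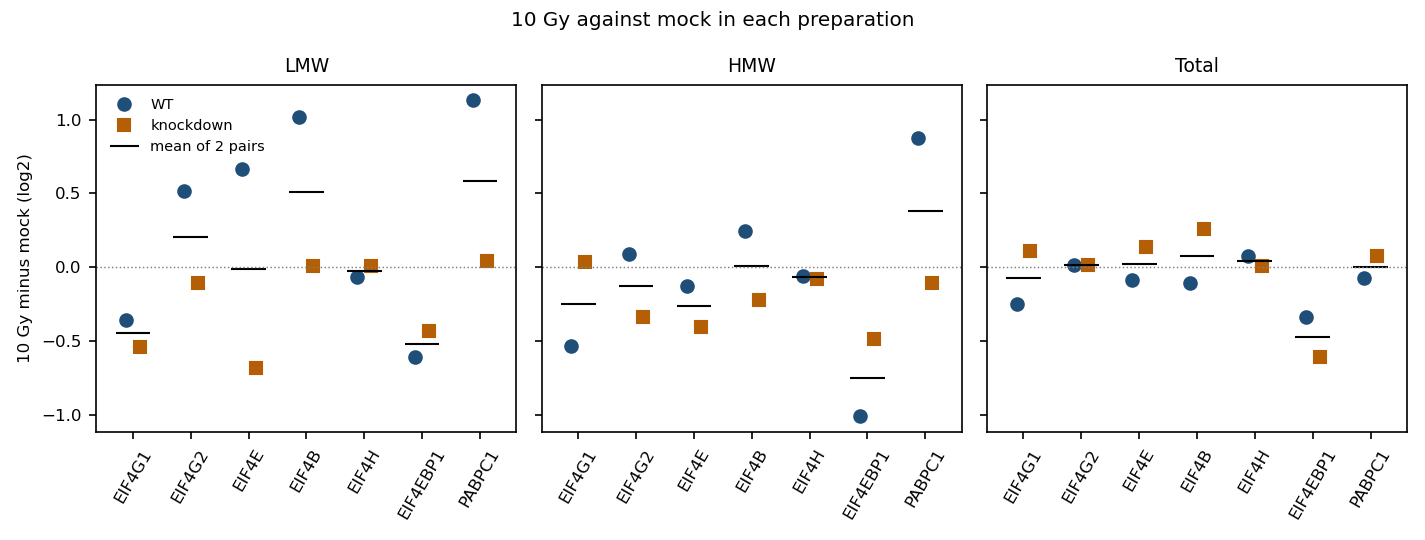
10 Gy minus mock (log2, vertical axis) for the 7 tested genes in LMW, HMW and Total; each point is the WT or the knockdown pair and the bar is their mean. EIF4EBP1 lies below 0 in both genotypes in every panel, and the WT and knockdown points of PABPC1, EIF4B and EIF4E lie far apart in LMW.

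Other genes near eIF4F were read from a list of 17 relatives and cap-binding partners, of which 13 were tested. In HMW against LMW 2 were higher and 1 lower, below the 19.6% and 21.1% of all genes, with a median of 0.09 against -0.06 over all genes. NCBP1, the large subunit of the nuclear cap-binding complex, was higher by 0.87 ± 0.269 (adjusted p = 0.0395) and PABPC3 by 0.58 ± 0.144 (adjusted p = 0.0188), whereas EIF4EBP2, the sister of EIF4EBP1, was lower at -0.53 ± 0.153 (adjusted p = 0.0305). The direction for EIF4EBP2 was that of EIF4EBP1. The PABPC3 set also has an _x_at name and may read the same RNA as the PABPC1 set, so it is no separate observation. Against Total, 2 were higher and 4 lower in HMW (background 17.4% and 18.6%, median -0.35 against 0.03) and likewise 2 and 4 in LMW (background 28.5% and 28.1%, median -0.17 against 0.01). EIF4A3, the helicase of the exon junction complex, was above Total by 0.93 ± 0.158 in HMW and 1.00 ± 0.197 in LMW (adjusted p = 0.0046 and 0.0044). PAIP2, an inhibitor of poly(A)-binding protein, was below it at -1.06 ± 0.144 and -1.15 ± 0.269 (adjusted p = 0.0020 and 0.0081). NCBP1 was also above Total in HMW (0.83 ± 0.185, adjusted p = 0.0122) and CTIF in LMW (0.65 ± 0.174, adjusted p = 0.0143), and PABPC1L, called below Total in both pools, was under 6 in all polysome arrays, so its differences have no exact size.

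In Total of knockdown cells 2 of these 13 were higher and 2 lower, below the 20.7% and 19.8% of all genes (median 0.04 against 0.03). EIF4E2, a cap-binding relative of EIF4E, was higher by 0.48 ± 0.0919 (adjusted p = 0.0025) and EIF4E3 by 0.59 ± 0.132 (adjusted p = 0.0059). NCBP2, the cap-binding subunit of the nuclear complex, was lower at -0.43 ± 0.107 (adjusted p = 0.0103) and EIF4ENIF1, which carries eIF4E into the nucleus, at -0.35 ± 0.107 (adjusted p = 0.0263). None was called in LMW or HMW (medians 0.12 and -0.08 against -0.002 and -0.005). On HMW minus LMW 3 moved toward heavy and 3 toward light polysomes (background 5.33% and 10.5%, median -0.02 against -0.01). Those toward heavy included NCBP2 (0.83 ± 0.285, adjusted p = 0.0458) and PAIP2 (0.83 ± 0.266, adjusted p = 0.0317). Those toward light included EIF4ENIF1 (-1.35 ± 0.283, adjusted p = 0.0015) and NCBP1 (-1.19 ± 0.287, adjusted p = 0.0049). On HMW minus Total none was called (median -0.09 against -0.02).

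All 16 genes of a list on signalling to eIF4F, the mTOR, S6 kinase and MNK routes, were tested. In HMW against LMW 3 were higher and 6 lower (background 19.6% and 21.1%, median -0.19 against -0.06). The kinase MTOR had the highest difference among those called (1.99 ± 0.183, adjusted p = 0.0013), followed by RPS6KA3 (0.76 ± 0.185, adjusted p = 0.0170). AKT1S1 and MLST8, partners of mTOR, were lower at -0.95 ± 0.167 and -0.86 ± 0.123 (adjusted p = 0.0065 and 0.0042). Against Total, 6 were higher and 1 lower in HMW (background 17.4% and 18.6%, median 0.29 against 0.03), with TSC2 at 1.52 ± 0.201, MTOR at 1.36 ± 0.173 and RHEB, the activator of mTOR, at -0.87 ± 0.126 (adjusted p = 0.0019, 0.0017 and 0.0025). In LMW 7 were higher and 4 lower than Total (background 28.5% and 28.1%, median 0.65 against 0.01), led by RPS6KA1 (1.79 ± 0.232, adjusted p = 0.0013) and MLST8 (1.48 ± 0.244, adjusted p = 0.0025). The lowest there were RPS6KB1 (-1.63 ± 0.428, adjusted p = 0.0131), encoding an S6 kinase, and RHEB (-0.84 ± 0.212, adjusted p = 0.0110). RPS6KB1 was at or above 6 in 3 of the 4 LMW arrays, so the size of its difference is not exact.

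In Total of knockdown cells 6 signalling genes were higher and 2 lower (background 20.7% and 19.8%, median 0.18 against 0.03). MKNK2, a kinase of eIF4E, was higher by 0.68 ± 0.0811 and SESN1, a stress-induced inhibitor of mTOR signalling, by 0.67 ± 0.104 (adjusted p = 0.00016 and 0.00081). RPS6KB1 was lower at -0.57 ± 0.105 and RHEB at -0.29 ± 0.0688 (adjusted p = 0.0020 and 0.0075). In LMW 3 were higher and 1 lower (background 10.3% and 5.1%, median 0.09 against -0.002), with TSC2 at 1.60 ± 0.416, RPS6KA3 at 1.27 ± 0.410 and RHEB at -1.05 ± 0.363 (adjusted p = 0.0022, 0.0182 and 0.0297). In HMW none was called (median -0.07 against -0.005). TSC2, which restrains RHEB, was the 1 gene of this list called on HMW minus LMW (background 5.33% higher and 10.5% lower), at -1.92 ± 0.288 (adjusted p = 4.9e-05), and none was called on HMW minus Total. After 10 Gy 0 genes of either list were called in any preparation.

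Among the 10157 genes, the one whose log2 levels followed each member most closely over the 12 arrays was found by Pearson r, as a description of arrays that share conditions and preparations. EIF4EBP1 lay nearest to POP7 (0.990), PABPC1 to RBAK (0.995), EIF4H to SPINDOC (0.981), EIF4E to EEF1AKMT2 (0.965), EIF4B to CNOT2 (0.955), EIF4G1 to PPP4R1 (0.936) and EIF4G2 to MTMR2 (0.909).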

How the data were processed

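The authors deposited 1 linear intensity per probe set and array, made with RMA per the submitters' processing notes. Whether RMA was run on all 12 arrays jointly is not stated there. Intensities were converted to log2 here. Of 54675 probe sets, 41097 had 1 gene symbol in the array's annotation (updated to RefSeq names), 1801 had several and 11777 were not listed. The main probe set of a gene was the one with the highest mean log2. Genes that reached log2 6 in 4 or more arrays were tested with limma 3.58.1 in R 4.3.3 (eBayes with a trend, Benjamini-Hochberg at 0.05, two-sided), after a test on simulated data. Preparations were compared over 8 arrays with the condition as a block (3 residual degrees of freedom). Knockdown and 10 Gy were fitted together on 4 arrays or 4 differences (1 residual degree of freedom). With 1 array for each condition and preparation, the number of arrays limits the precision.

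The members, lists, tests and alternatives were chosen with earlier results of these data known. The text names all members, up to 2 highest and 2 lowest called genes of each list, and the gene nearest to each member. Each fit was repeated unfiltered, with the filter raised to 7, with the median over a gene's probe sets, without _x_at or _s_at sets, after cyclic loess, and without the trend. Comparisons of preparations were repeated without the block and without each condition, and the knockdown and 10 Gy fits within a preparation on all 12 arrays at once with the condition as a random block.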

Additional observations from a re-analysis of the deposited data

Results flagged for a closer look

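EIF4G1 and EIF4E differed between genotypes in HMW minus LMW. The effect of the knockdown was -1.70 for EIF4G1 and 1.16 for EIF4E on the log2 scale, each past the threshold in limma. The EIF4E pairs also had opposite signs, with 0.62 in knockdown mock and 0.89 in knockdown 10 Gy cells against -0.0075 in WT mock and -0.80 in WT 10 Gy cells. The WT mock value is close to 0. PABPC1 differed between genotypes in HMW minus Total by 0.48, with the difference in the mock pair alone.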

How the results depend on the processing

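No paired analysis by replicate number was possible because each group has 1 array; the condition block above pairs preparations. Of 576 member values recomputed under other settings, 519 kept direction and side of the threshold, 20 lost the call, 11 gained it and 26 changed sign; of 129 recomputed from the 17 called values, 109 were kept and none changed sign. The cause of these changes was not tested.

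Counts of called genes moved by over 1.5 times as follows. HMW minus LMW (4134 genes) gave 55 with no condition block, and 2283 to 4593 with a condition left out. HMW minus Total (3657) gave 2321 without _x_at and _s_at sets and 1659 to 4496 with a condition left out, and LMW minus Total (5750) gave 10570 with no filter. Knockdown in Total (4113) gave 2692 with the median of probe sets and 240 with 12 arrays in a single fit. Without _x_at and _s_at sets, knockdown in LMW (1565) gave 943 and in HMW (1006) 575. The knockdown on HMW minus LMW (1609) gave 765 with the median, 548 without _x_at and _s_at sets and 957 with no trend, and on HMW minus Total (453) 232 with the median and 276 without those sets. In Total, 10 Gy (18) gave 39 with no filter, 46 with a filter at 7, 6 with the median, 6 without _x_at and _s_at sets, 140 with loess, 0 with no trend and 0 with 12 arrays. In LMW, 10 Gy (38) gave 24, 3, 15, 8 and 8 under the same first 5 settings and 0 with 12 arrays. In HMW, 10 Gy (48) gave 124 with no filter, 20 at 7, 15 with the median and 0 with 12 arrays.

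Sign changes were all among values not called in the report, and for knockdown in Total the changed values of EIF4B and EIF4E passed the threshold under the median of probe sets (adjusted p = 0.0195 and 0.0045). With the median of probe sets, EIF4G2 gave -0.13 for HMW minus LMW, 0.26 for LMW minus Total, 0.077 for knockdown in Total, 0.13 in LMW, -0.018 for 10 Gy in LMW and -0.15 for the knockdown on HMW minus LMW. EIF4B gave 0.0071 for HMW minus Total, 0.35 for knockdown in Total and -0.13 for 10 Gy in HMW. EIF4E gave -0.69 for knockdown in Total, and -0.30, 0.84 and 0.66 for 10 Gy in Total, LMW and HMW; without _x_at and _s_at sets it gave -0.69, -0.30, 0.95 and 0.66. PABPC1 gave -0.14 for 10 Gy in Total. With loess, 10 Gy gave -0.0012 for PABPC1 in Total, 0.033 for EIF4E and 0.0025 for EIF4H in LMW and -0.022 for EIF4B in HMW, and EIF4EBP1 gave 0.088 for the knockdown on HMW minus LMW. With a condition left out, EIF4E ran from -0.063 to 0.50 for HMW minus LMW and EIF4B from -0.16 to 0.037 for HMW minus Total.

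With no condition block the HMW minus LMW calls of EIF4G1, EIF4EBP1 and PABPC1 were lost (adjusted p = 0.325, 0.350 and 0.276), as was EIF4G1 for LMW minus Total (0.316). The median of probe sets, which for PABPC1 averages in a set near background, lost its calls for HMW minus LMW (0.0689), HMW minus Total (0.761), LMW minus Total (0.162), knockdown in HMW (0.815) and the knockdown on HMW minus Total (0.871). EIF4EBP1 in Total lost its knockdown call with 12 arrays in a single fit (0.239).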
